A study of Rattus norvegicus with 12 samples.

Results

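The genes described here are 9 symbols that stand for B lymphocytes and for the antibody-secreting plasma cells that B cells become, out of 30045 symbols in the count table. Of these, 5 mark mature B cells (Ms4a1, Cd79a, Cd79b, Bank1 and Fcrla) and 4 are used as plasma cell genes (Irf4, Prdm1, Sdc1 and Derl3). RNA was sequenced from a piece of lung of 12 male Fischer rats (F344/DuCrl), bought at 3 months of age. The air group held 6 control rats exposed to air in a whole-body chamber. The CNC group held 6 rats that breathed crystalline nanocellulose, rod-like crystals cut from plant cellulose, at 20 mg/m3 for 6 hours a day on 5 days a week, for 14 days of exposure in all. Lungs of both groups were taken 1 day after the last exposure. Library totals ran from 8693259 to 16603697 counts. Levels are given in CPM, counts scaled to a common library size, and each rat is 1 library.

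B cells detect antigen with a membrane immunoglobulin whose signal is carried by the CD79A and CD79B chains. In the rat, lymphocytes gather beside the airways in bronchus-associated lymphoid tissue, so a piece of lung can hold more or less of it. When a B cell becomes a plasma cell, the transcription factors IRF4 and BLIMP1 (encoded by Prdm1) switch off the B cell program, and the endoplasmic reticulum (ER) expands under XBP1 to fold and secrete antibody. None of the 4 plasma cell genes is restricted to plasma cells: IRF4 and BLIMP1 also act in dendritic cells, macrophages and T cells, syndecan-1 (Sdc1) covers epithelium, and Derl3 serves ER-associated degradation in secretory cells.

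After CNC the B cell genes Ms4a1 and Cd79b did not pass the test, and the 4 plasma cell genes all did, in opposite directions. Irf4 (1.66-fold), Derl3 (1.56-fold) and Sdc1 (1.13-fold) rose and Prdm1 (1.22-fold) fell. Of the mature B cell genes Fcrla rose (1.55-fold), Bank1 fell (1.18-fold), Ms4a1 and Cd79b did not pass, and Cd79a was too low to test. None of these 6 calls passed once the clock genes, which separated the groups, were a covariate; the values stand with the clock genes at the end. A gene is called changed at an adjusted p under 0.05 in the quasi-likelihood test of edgeR, adjusted after Benjamini and Hochberg over all 15019 genes tested. In that test 24.6% of all genes were called, 13.2% as higher and 11.4% as lower. The 8 members tested gave 4 calls as higher and 2 as lower, and the log2 fold change had its median at 0.41 for the 4 plasma cell genes, at -0.03 for the 4 mature B cell genes tested and at -0.0026 for all genes. In a piece of tissue, fewer cells of a type and less RNA per cell cannot be told apart.

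**Figure D1:**
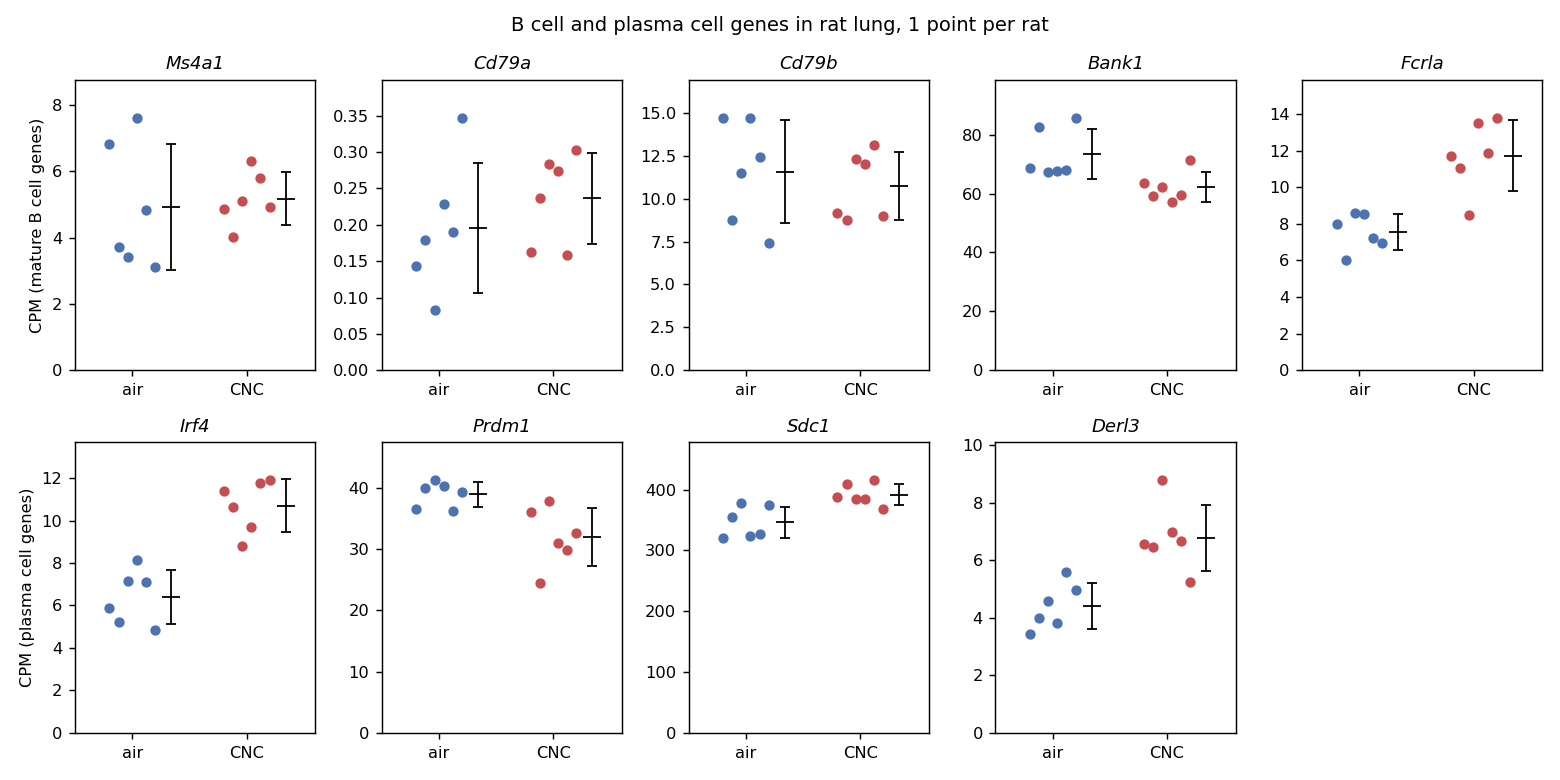
Level of each of the 9 genes in CPM (vertical axis, from 0, on a scale of its own for each gene) in the 6 air and 6 CNC rats; points are rats, and the bar beside them is the mean ± SD. Irf4 is the 1 gene whose CNC rats (8.79 to 11.9 CPM) all lie above the air rats (4.86 to 8.16 CPM), while Ms4a1 and Cd79b spread widely within the air group.

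Ms4a1 encodes CD20, a membrane protein of B cells. The air rats had 3.13, 4.28 and 7.63 CPM of Ms4a1 (lowest, median and highest), and the CNC rats had 4.02, 5.02 and 6.31 CPM. The groups overlapped, with all 6 CNC rats inside the range of the air rats. Ms4a1 averaged 4.93 ± 1.89 CPM without and 5.18 ± 0.797 CPM with CNC (SD, n = 6 each). The log2 fold change of Ms4a1 was 0.06 ± 0.21 SE (edgeR adjusted p = 0.871), with a 95% interval from -0.38 to 0.50. That interval holds the log2 fold changes of Sdc1, Bank1 and Prdm1 and leaves out those of Fcrla, Derl3 and Irf4, given below.

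Cd79b, the signalling partner chain of the B cell receptor, had 7.41, 12.0 and 14.7 CPM in air and 8.75, 10.6 and 13.1 CPM in CNC. Again every CNC rat lay inside the air range. The log2 fold change of Cd79b was -0.11 ± 0.16 SE (edgeR adjusted p = 0.680), with a 95% interval from -0.46 to 0.23. Cd79a encodes the other chain of the same heterodimer, yet its row held 1 to 3 counts in each air library and 2 to 4 in each CNC library, where Cd79b had 64 to 204 and 89 to 175. Cd79a summed to 14 counts over the air libraries and 18 over the CNC libraries, at about the floor of 3 counts a library, so no fold is given. Tested without the count filter, Cd79a had an adjusted p of 0.725 by edgeR. The row therefore says little about how much of this chain the lung made.

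Bank1 encodes a scaffold protein that links the B cell receptor to calcium release. It had 67.5, 68.4 and 85.8 CPM in air and 57.0, 60.9 and 71.6 CPM in CNC. Of the CNC rats 5 lay below the lowest air rat, and CNC replicate 6 lay inside the air range. Bank1 fell by 0.24 ± 0.07 SE on the log2 scale (edgeR adjusted p = 0.0203). Leaving out air replicate 2, which had the second-highest Bank1, ended the call (log2 fold change -0.20, edgeR adjusted p = 0.0553).

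Fcrla encodes an Fc receptor-like protein that stays inside B cells and binds immunoglobulin. It had 6.05, 7.60 and 8.57 CPM in air and 8.50, 11.8 and 13.8 CPM in CNC. All CNC rats but replicate 3 lay above every air rat. Fcrla averaged 7.55 ± 0.995 CPM without and 11.7 ± 1.92 CPM with CNC (SD, n = 6 each), with a log2 fold change of 0.63 ± 0.12 SE (edgeR adjusted p = 0.00124).

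Irf4, the transcription factor needed at high dose for plasma cell formation, had 4.86, 6.51 and 8.16 CPM in air and 8.79, 11.0 and 11.9 CPM in CNC. The groups did not overlap, and it was the 1 such member. Of all tested genes 6.82% had every CNC rat above every air rat, and 4.69% had every CNC rat below. Irf4 rose by a log2 fold change of 0.73 ± 0.13 SE (edgeR adjusted p = 0.000514). Prdm1, whose product represses the B cell program, had 36.3, 39.6 and 41.2 CPM in air and 24.4, 31.8 and 37.8 CPM in CNC. All 6 CNC rats were below the air median and 5 were below the lowest air rat. Prdm1 fell by 0.28 ± 0.08 SE on the log2 scale (edgeR adjusted p = 0.0196), opposite to Irf4 in the same lungs.

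Sdc1, the heparan sulfate proteoglycan known on plasma cells as CD138, had 320.6, 341 and 377 CPM in air and 367, 386 and 415 CPM in CNC. The shift was small and steady, and 5 CNC rats lay above all air rats. Sdc1 rose by a log2 fold change of 0.18 ± 0.05 SE (edgeR adjusted p = 0.0120). Derl3, a derlin that moves misfolded proteins out of the ER, had 3.45, 4.29 and 5.60 CPM in air and 5.24, 6.63 and 8.79 CPM in CNC. All CNC rats were above the air median, and 5 were above every air rat. Derl3 rose by a log2 fold change of 0.64 ± 0.14 SE (edgeR adjusted p = 0.00292), on 43 to 67 counts per air library and 52 to 124 per CNC library.

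As a description of the contrast between the sets, the mean log2 CPM of the 4 mature genes tested minus that of the 4 plasma cell genes was taken in each rat. It ran from -1.16 to -0.54 in air (median -1.02) and from -1.26 to -0.94 in CNC (median -1.13). The groups overlapped, and the highest values were those of air replicates 1 and 4. The plasma cell mean on its own ran from 4.49 to 4.76 in air and from 4.86 to 5.04 in CNC, without overlap. It averages 4 genes chosen with results known, of which Prdm1 went the other way. Whether it follows the number of plasma cells was not tested. The mature mean ran from 3.47 to 4.01 and from 3.65 to 3.98.

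Most genes of the wider B cell list were not called. Of 22 tested B cell genes outside the 9, 2 were called higher, 1 lower and 19 were not called, and the median log2 fold change was -0.02. Pax5, the factor that commits cells to the B lineage, averaged 1.32 ± 0.312 CPM without and 1.82 ± 0.476 CPM with CNC (SD, n = 6 each; edgeR adjusted p = 0.154). Cd22, an inhibitory receptor, and Pou2af1, an octamer coactivator, were not called either (edgeR adjusted p = 0.131 and 0.237). Ebf1, a B lineage factor also made in stroma, fell by 0.29 on the log2 scale (edgeR adjusted p = 0.0295). The 2 that rose were Fcrl2 (2.21-fold) and Cd53 (1.43-fold), a tetraspanin of leukocytes in general. Whether B cells made the Fcrl2 transcript in these lungs was not tested. Germinal centre genes gave 1 call each way among 8 tested, Gcsam higher (1.68-fold) and Rgs13 lower (1.57-fold).

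**Figure D2:**
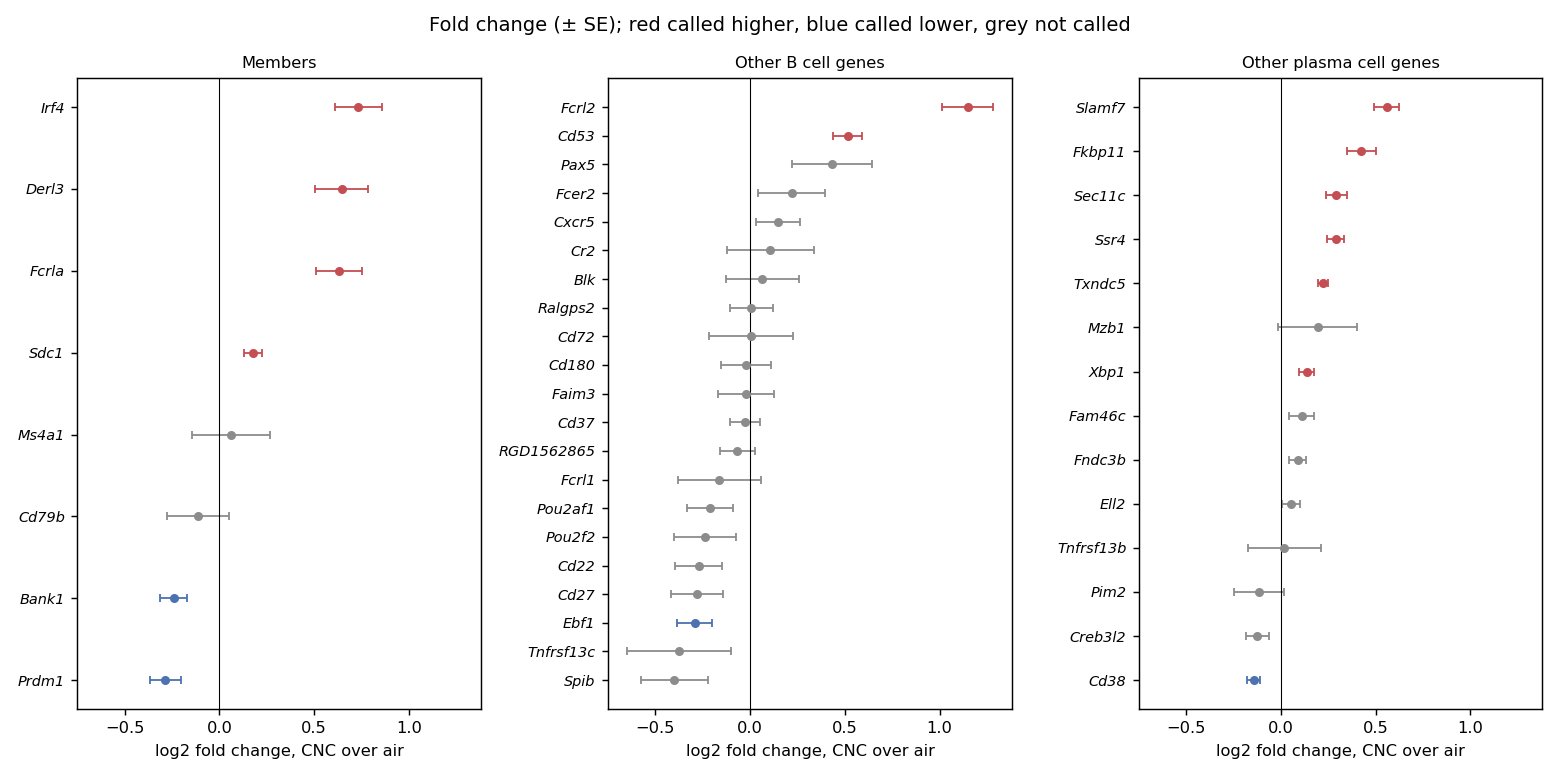
Log2 fold change of CNC over air (horizontal axis) with its SE for the tested members, the other B cell genes (1 that was not called is not drawn) and the other plasma cell genes; red marks genes called higher, blue lower and grey not called. Most B cell genes lie within reach of 0, while Irf4, Derl3, Fcrla, Fcrl2 and Slamf7 stand to the right.

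Several genes of the secretory machinery were among the plasma cell genes that rose. Of 14 tested plasma cell genes outside the 9, 6 were called higher, 1 lower and 7 were not called, and the median log2 fold change was 0.12. Those called of smallest adjusted p were Slamf7, a surface receptor of plasma cells, natural killer cells and macrophages (1.47-fold), the disulfide isomerase Txndc5 (1.17-fold), the translocon subunit Ssr4 (1.22-fold) and Fkbp11, a secretory pathway prolyl isomerase (1.34-fold). Sec11c, a signal peptidase subunit, and Xbp1 (1.10-fold) rose, and Cd38, an ectoenzyme, fell. Mzb1, a chaperone of antibody assembly, averaged 4.56 ± 1.35 CPM without and 5.24 ± 1.39 CPM with CNC (SD, n = 6 each) and was not called (edgeR adjusted p = 0.551). Tnfrsf17, the plasma cell survival receptor BCMA, was below the count filter with 45 counts over the air libraries and 37 over the CNC libraries. The immunoglobulin chains and the joining chain were not analysed here. Plasma cell genes is therefore the name of a list here: among the more specific markers, Mzb1 was not called and Tnfrsf17 was not tested.

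Derl3 rose, as did many ER genes, and its promoter is shown because it carries the ER stress response element (ERSE), the site through which ATF6 and XBP1 are known to act. Of 21 tested ER folding and degradation genes 12 were called higher and 0 lower, and the median log2 fold change was 0.11. The 4 of smallest adjusted p were Sdf2l1, an ER chaperone partner (1.92-fold), the lectin chaperone Calr (1.24-fold), the isomerase Pdia6 and the secreted stress protein Manf. Derl1, a paralog, rose by 1.06-fold. The 250 bases before the start of Derl3, taken from RefSeq (GRCr8, minus strand, chr20:12766466-12766715), read as follows, with the ERSE match in capitals, here read as its reverse complement.
Derl3: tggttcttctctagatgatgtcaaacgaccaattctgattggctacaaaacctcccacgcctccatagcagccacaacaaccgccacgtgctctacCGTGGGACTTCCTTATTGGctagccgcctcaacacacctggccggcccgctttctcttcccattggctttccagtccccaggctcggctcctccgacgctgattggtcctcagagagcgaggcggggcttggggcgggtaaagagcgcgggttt
The ERSE was searched on both strands as CCAAT and CCACG with 9 bases of any kind between them, and it occurs in 22 of 33469 promoters of that length (0.0657%). Among 38 promoters of the plasma cell, other plasma cell and ER genes, 8 held it, 1 of them at 2 places. The ER list was drawn around ER stress, for which the element is named. Its share therefore cannot be weighed against that of all promoters. Of those 8 genes 6 were called higher (Derl3, Xbp1, Hspa5, Dnajc3, Creld2 and Calr), and Hsp90b1 and Canx were not called. In the 3 lists as wholes, 3 of 4, 6 of 14 and 12 of 21 tested genes were called higher. Sdf2l1, which rose 1.92-fold, held no ERSE. The elements of Hsp90b1 and Canx are not shown, so spacers of called and uncalled genes cannot be compared here. The elements of the 6 genes called higher that held it are set side by side to show their spacers. Each is 19 bases read in the CCAAT direction, and the capitals are the fixed letters searched for.
Derl3 (chr20:12766601-12766619, plus strand): CCAATaaggaagtcCCACG
Xbp1 (chr14:84604558-84604576, plus strand): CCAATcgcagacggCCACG
Hspa5 (chr3:38452973-38452991, plus strand): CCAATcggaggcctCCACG
Dnajc3 (chr15:102432534-102432552, plus strand): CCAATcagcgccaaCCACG
Creld2 (chr7:121789239-121789257, minus strand): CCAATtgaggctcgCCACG
Calr (chr19:40213135-40213153, minus strand): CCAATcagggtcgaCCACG
A match is a description of the letters. Of the 9 members 7 had a promoter sequence (all but Ms4a1 and Cd79b), and in those 7 none of 5 other motifs was found: the octamer ATGCAAAT, the PU.1 box GAGGAAGT, the EBF motif (TCCC and GGGA, 2 bases apart), the interferon element core (GAAA and GAAA, 2 bases apart) and the XBP1 core TGACGTGG, which can share letters with an ERSE on the other strand. They occur in 1.56, 2.04, 0.738, 3.41 and 0.52% of promoters. In the RefSeq gene table the span of Derl3 overlaps Smarcb1, which had a log2 fold change of -0.01 (edgeR adjusted p = 0.889).

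**Figure D3:**
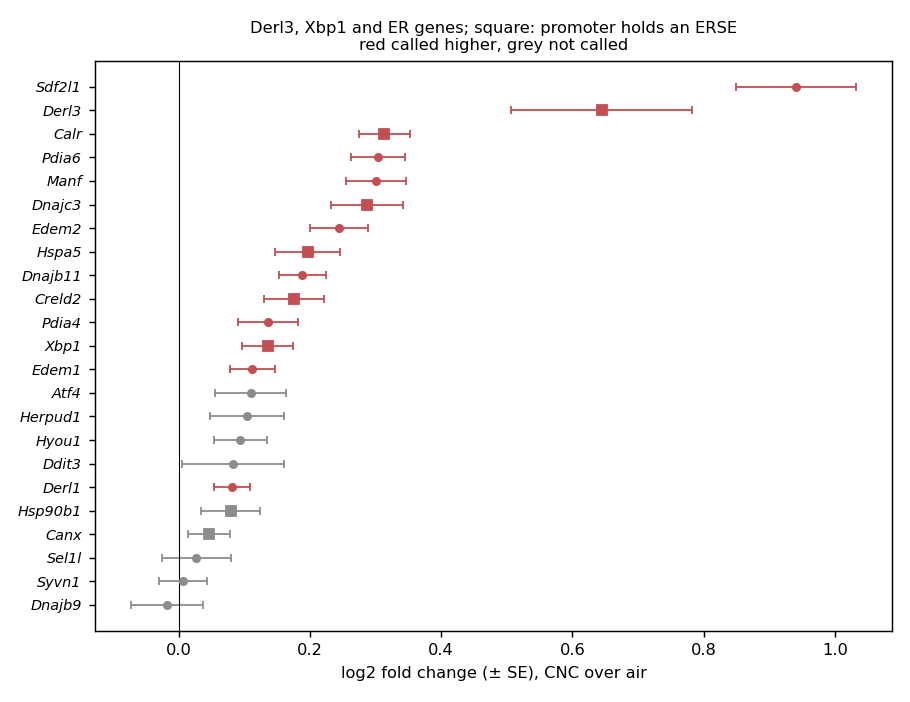
Log2 fold change of CNC over air with its SE (horizontal axis) for Derl3, Xbp1 and the tested ER genes; squares mark genes whose 250-base promoter window holds an ERSE, red marks genes called higher and grey genes not called. Derl3 (0.64) and Sdf2l1 (0.94) lie farthest to the right, and Hsp90b1 and Canx carry the element without a call.

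Fcrla rose, and so did its neighbours on the chromosome. Its nearest tested protein-coding genes in the RefSeq table are Fcrlb, a second intracellular Fc receptor-like gene, and Fcgr2b, the inhibitory Fc receptor of B cells and myeloid cells. Fcrlb, named after its values were seen, reached at most 2.82 CPM in air (median 2.11) and at least 4.11 CPM in CNC (median 5.68, highest 6.79). The groups did not overlap, and the rise was 2.65-fold (edgeR adjusted p = 2.59e-05). Fcgr2b had 10.4, 13.4 and 16.9 CPM in air and 24.0, 31.2 and 41.8 CPM in CNC, also without overlap, a 2.41-fold rise (edgeR adjusted p = 6.80e-06). Fcrl1, a surface receptor of B cells, averaged 1.72 ± 0.569 CPM without and 1.51 ± 0.285 CPM with CNC (SD, n = 6 each; edgeR adjusted p = 0.654). Near-identical copies in such gene clusters can share reads, and how the counting treated them is not given in the sources used here.

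**Figure D4:**
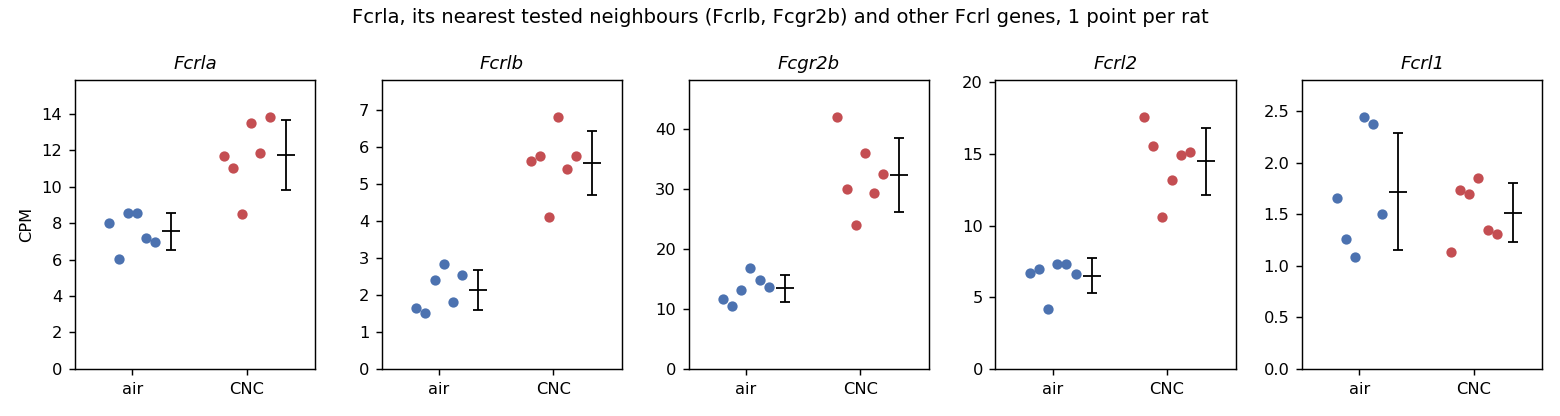
Levels in CPM (vertical axis, from 0) of Fcrla, its neighbours Fcrlb and Fcgr2b, and the genes Fcrl2 and Fcrl1 in the 6 air and 6 CNC rats; points are rats, bars are mean ± SD. Fcrlb, Fcgr2b and Fcrl2 separate the groups, Fcrla separates all but CNC replicate 3, and Fcrl1 overlaps.

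Signal transducers below the B cell receptor, many of which other leukocytes also use, gave calls in both directions. Of 21 tested, 9 were called higher, 2 lower and 10 were not called, and the median log2 fold change was 0.08. The 4 of smallest adjusted p were Fcgr2b, the adaptor Dok3 (1.46-fold), Rasgrp3 (lower, 1.19-fold) and the guanine exchange factor Vav1 (1.35-fold). Btk, a kinase of B cells and macrophages, rose (log2 fold change 0.47), and Blnk, the B cell linker, was not called (edgeR adjusted p = 0.171). For signals that attract, keep or help B cells, 3 of 15 tested members rose and 2 fell. Pigr, which carries secreted IgA across epithelium, averaged 1589 ± 162 CPM without and 2872 ± 358 CPM with CNC (SD, n = 6 each) and rose 1.81-fold (edgeR adjusted p = 3.37e-06). The plasma cell survival factor APRIL (Tnfsf13) rose 1.48-fold and lymphotoxin beta (Ltb) 2.45-fold, while Cxcr4 and Ccl21 fell. The B cell survival factor BAFF (Tnfsf13b) had 21.0 ± 1.32 and 20.2 ± 0.868 CPM (edgeR adjusted p = 0.452). Cxcl13, which draws B cells into follicles, was below the filter with 69 counts over the air libraries and 70 over the CNC libraries.

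Ms4a1 and Cd79b varied between rats of the same group, and Ms4a1 varied with T cell genes. With each rat expressed as its deviation from its group mean in log2 CPM, 15 relations were computed over the 12 rats: Ms4a1 against the other 7 members, and the mean of 16 T cell markers against all 8. Ms4a1 and Cd79b went together (Pearson r = 0.84, adjusted p = 0.0345; Spearman rho = 0.88, adjusted p = 0.0282; exact permutation within groups, two-sided), and r was 0.77 without the 2 rats farthest out, air replicates 4 and 1. The T cell mean went with Ms4a1 (r = 0.88, adjusted p = 0.0345; rho = 0.87, adjusted p = 0.0483; exact permutation), with r = 0.75 without air replicates 4 and 6. The T cell mean went against Sdc1 (r = -0.85, adjusted p = 0.0361; rho = -0.90, adjusted p = 0.0305; exact permutation), with r = -0.82 without the same 2 rats. The other 12 relations did not pass. The raw exact permutation p of these 3 Pearson values was 0.00425, 0.00460 and 0.00723. The T cell mean ran from 3.21 to 3.79 log2 CPM in air and from 3.31 to 3.57 in CNC. The air rats therefore weigh most in its relations with Ms4a1 and Sdc1, which were not tested within a single group. Air replicates 1 and 4 had the most Ms4a1, and air replicates 3 and 6 the least. Outside the 15 relations, Sdc1 had r = 0.71 with the mean of 15 epithelial markers. With the mean of 14 other plasma cell genes Sdc1 had r = -0.11. These values of Sdc1 are descriptions and were not tested.

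**Figure D5:**
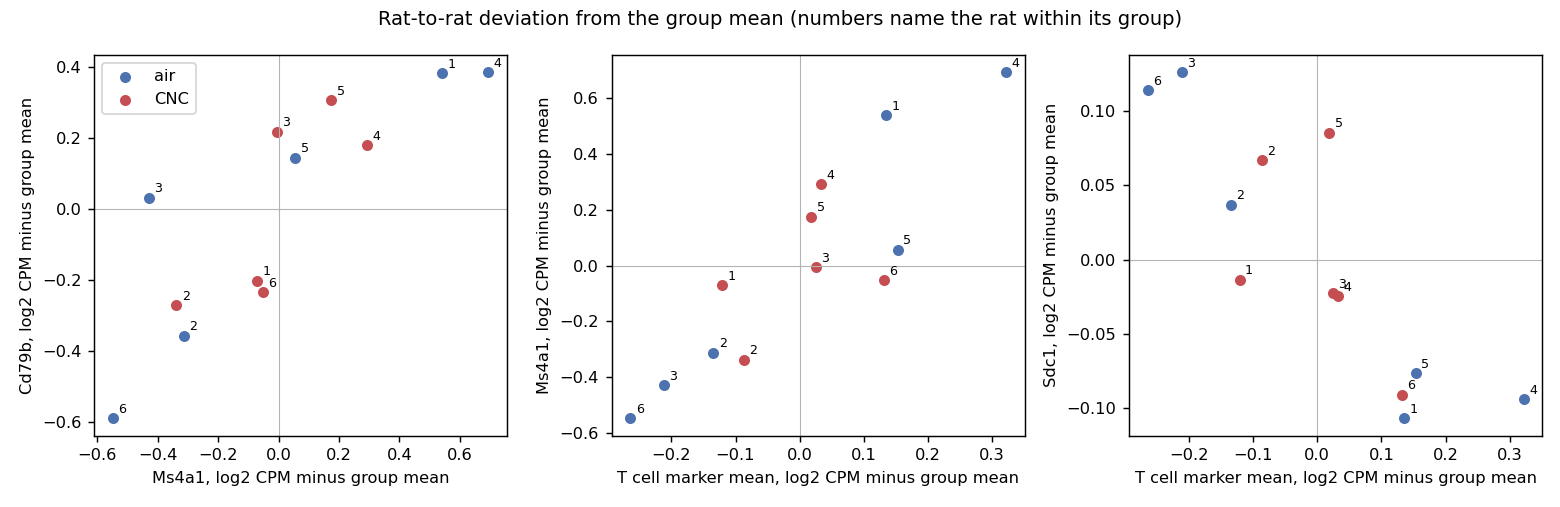
Deviation of each rat from its group mean in log2 CPM, for Cd79b against Ms4a1, Ms4a1 against the mean of the T cell markers, and Sdc1 against that mean; blue points are air rats, red points CNC rats, and numbers name the rat. The left and middle panels slope upward (r = 0.84 and 0.88) and the right panel downward (r = -0.85).

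Within groups the members of a set did not all vary together. Over the 6 pairs of tested mature B cell genes r ran from -0.78 (Cd79b with Bank1) to 0.84, and over the 6 pairs of plasma cell genes from -0.30 to 0.32. Values over both groups can hide a difference between them. Prdm1 with Sdc1 had r = 0.64 in air and -0.61 in CNC, and Irf4 with Derl3 -0.0065 and -0.85. Sdc1 with Derl3 was alike in both (0.38 and 0.23). These are descriptions over 12 rats that share library and tissue piece. The 5 genes most like the mature B cell mean within groups, among 12878 with at least 1 CPM, were Fam65b, Cyb561a3, Faim3, Rslcan18 and Pik3cd (r from 0.91 to 0.96). The 5 most like the plasma cell mean were Fzd6, Rps27l, Zfp18, Tmem171 and Uqcrc2 (r from 0.86 to 0.91).

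Markers of other cells that can make these transcripts were measured in the same libraries. Of 16 tested T cell markers 1 fell (Cd8a) and 0 rose, and their summed level was 263 to 364 CPM in air and 280 to 304 CPM in CNC. Among dendritic cell and macrophage markers 8 of 15 tested rose and 1 fell, with a summed level of 727 to 846 CPM in air and 784 to 1090 CPM in CNC. Those of smallest adjusted p were Cd68 (2.03-fold), Itgax (1.66-fold), Ccl22 (5.09-fold) and Msr1 (1.63-fold). Ccl22 was low, with 40 counts over the air libraries and 213 over the CNC libraries. The 1 that fell was Csf1r, with means of 298 CPM in air and 264 CPM in CNC (edgeR adjusted p = 0.0311). Another 6 were not called, Mrc1, Siglec1 and Adgre1 among them. Marco had 0 counts in every library, and whether its row counts its reads was not tested. Irf8, a paralog of Irf4, rose 1.29-fold and Irf5 rose 1.30-fold, while the other 6 interferon regulatory factors tested were not called. For epithelial markers 4 of 15 rose and 2 fell, with a summed level of 20916 to 25454 CPM in air and 23310 to 27297 CPM in CNC. Sftpc was the largest part of it, with means of 10217 CPM in air and 13397 CPM in CNC. Among the paralogs of Sdc1, Sdc2 fell by 0.13 on the log2 scale and Sdc3 and Sdc4 were not called. Of 7 tested lymphatic, stromal and high endothelial markers 5 fell (Prox1, Lyve1, Ccl21, Mmrn1 and Flt4) and 0 rose. Pdpn and the high endothelial gene Chst4 were not called (edgeR adjusted p = 0.212 and 0.840), and Madcam1 and Glycam1 were below the filter. The summed level of the list was 1124 to 1331 CPM in air and 998 to 1097 CPM in CNC, without overlap. Pdpn, which is not restricted to lymphatic cells, was the largest part of that sum, with a mean of 599 CPM in air and 555 CPM in CNC. Prox1 averaged 3.89 CPM in air and 2.75 CPM in CNC. The sum therefore cannot be read as a level of lymphatic cells. The part of each cell type in the result for Irf4, Fcrla, Sdc1 or Prdm1 was not tested.

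Clock genes also differed between the groups: 8 of 15 tested rose and 5 fell, and Dbp, an output of the clock, had 9.28 to 34.2 CPM in air and 31.5 to 83.8 CPM in CNC. The leading principal component of the clock genes ran from -0.39 to 2.89 in air and from -2.52 to -0.62 in CNC, without overlap. With it as a covariate none of the 6 member calls passed (edgeR adjusted p from 0.0555 to 0.880), and the standard errors of the members were 1.69 to 2.31 times those without it. The log2 fold changes of Sdc1 (0.35, from 0.18) and Derl3 (0.77, from 0.64) were larger in size with the covariate. That of Prdm1 was -0.22, from -0.28. Those of Fcrla (0.22, from 0.63), Irf4 (0.34, from 0.73) and Bank1 (-0.06, from -0.24) were smaller in size by a wider margin. With that covariate Ms4a1 had a log2 fold change of -0.82 and Cd79b -0.66, neither called. A change that goes with the clock and a change that goes with CNC cannot be told apart for these genes.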

How the data were processed

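The authors deposited 1 table of raw read counts, as whole numbers without normalization, with a row per gene symbol and a column per rat (12 libraries). Libraries came from a stranded mRNA kit with 12 PCR cycles, per the labels' protocols. Named tools, without their roles, are HTSeq 0.11.2, SAMtools 1.8, HISAT2 2.1.0, Trimmomatic 0.35, bcl2fastq 2.19 and Cufflinks, per the submitters' processing notes. Whether the counting used strand, and which annotation, is not given in the sources used here, so overlapping and antisense genes are uncertain.

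Groups were taken from the labelled treatment, with rats numbered in accession order. Which rats shared a cage (3 per cage) was not analysed here. Within groups the 30 pairs of libraries differed by a chi-square of 2.6 to 7.93 per degree of freedom. The test was that of edgeR 4.0.16 under R 4.3.3 (filterByExpr at 10 counts and 15 in total, TMM, glmQLFit, glmQLFTest). This left 15019 genes, 8 of the 9 members among them; Cd79a fell below the filter, so the contrast between the sets uses 4 mature genes where 5 were planned. A standard error is the log2 fold change over the root of F. Log2 CPM use a prior count of 2. The common biological coefficient of variation was 8.05%. The fit was tested on simulated data.

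The members and all gene lists were chosen with earlier results of these data known. All 9 members are named, with up to 4 called genes of smallest adjusted p from each other list, the 5 genes most like each set (mean of at least 1 CPM) and further list members chosen after their values were seen. List symbols were matched directly or through a RefSeq synonym, as with Fcmr (Faim3). Alternatives were DESeq2 1.42.0 size factors, library size alone, upper-quartile scaling, all genes without a filter, at least 1 CPM in 6 libraries, limma-voom (limma 3.58.1), the Wald test of DESeq2, robust edgeR, a clock gene covariate and leaving out each rat. A T cell marker covariate, and the alternatives of the contrast between the sets, were added after seeing the data. Promoters came from a RefSeq table (GRCr8), another build than the one in the deposited table's name (Rnor6), and were used for sequence alone. Correlations of each rat's deviation from its group mean were tested by exact permutation within groups. Figures used Python 3.11.15 and matplotlib 3.10.9. The values of 1 gene of the other B cell list, which its counts and median include, are not reported here.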

Additional observations from a re-analysis of the deposited data

How the results depend on the processing

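Over 22 alternatives the count of plasma cell genes called stayed at 4 in all but the clock covariate, where it was 0. The count of mature B cell genes called was 2, except 0 with the clock covariate and 1 without air replicate 2, so leaving out single rats gave 1 to 2. The count of all genes changed was 3691, and it was 576 with the clock covariate (378 higher and 198 lower). Over the leave-outs of single rats it ran from 3091 to 3722. The calls of Fcrla, Irf4, Prdm1, Sdc1 and Derl3 were lost with the clock covariate alone (log2 fold changes 0.22, 0.34, -0.22, 0.35 and 0.77, those of Sdc1 and Derl3 larger than without it), and that of Bank1 with it and without air replicate 2 (log2 fold change -0.20). Ms4a1 was called nowhere, and its direction turned with the clock covariate (log2 fold change -0.82) and without air replicates 2 (-0.016), 3 (-0.023) and 6 (-0.025) and without CNC replicate 4 (-0.0066); the leave-outs ran from -0.025 to 0.23. Cd79b kept its sign and was called nowhere (log2 fold change from -0.66 to -0.03). The difference between the groups in the contrast of the sets was -0.20, and ran from -0.25 to -0.12 over 17 alternatives. Those 17 were the scaling, filter and leave-out alternatives. Scaling nearly cancels in a difference within a library, so the scaling alternatives could hardly move it (-0.20 in each). The clock covariate, with which no member was called, was not applied to this contrast. No paired analysis was possible because the labels give the groups no shared replicate numbers. Cd79a had at most 4 counts in a library, where Cd79b had 64 or more; whether its row counts all its reads was not tested. Amplified reads are not independent molecules.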

Other observations

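The family of Ms4a1 was looked at after its values were seen. Ms4a6a, a relative expressed in macrophages, averaged 6.04 ± 0.805 CPM without and 8.84 ± 0.805 CPM with CNC (SD, n = 6 each) and rose 1.47-fold, with all CNC rats above all air rats (edgeR adjusted p = 0.000864). Ms4a6b had 6.70 ± 0.989 and 4.68 ± 0.644 CPM and fell 1.44-fold, with all CNC rats below all air rats (edgeR adjusted p = 0.00589). Ms4a6c rose 1.34-fold (edgeR adjusted p = 0.0279). Ms4a4a, Ms4a4c, Ms4a18, Ms4a7, Ms4a2 and Ms4a6bl were not called. How the counting divided reads among the similar Ms4a6 copies was not tested. Among Fc receptors, Fcgr2a rose (log2 fold change 0.68, edgeR adjusted p = 1.73e-05) as did Fcgr1a (log2 fold change 0.38, edgeR adjusted p = 0.00263), and Fcgr3a was not called (edgeR adjusted p = 0.531).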
